A study of Mus musculus with 12 samples.

Results

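Nuclear-encoded subunits of mitochondrial complex I were examined in RNA-seq profiles of the extensor digitorum longus (EDL), a fast-twitch hind limb muscle. The members were the genes whose symbol begins with Ndufa, Ndufb, Ndufc, Ndufs or Ndufv, leaving out the Ndufaf assembly factors, and whose FPKM averaged 0.5 or more across the libraries. FPKM is the number of fragments per kilobase of transcript, scaled by depth. The rule found 40 genes among the 17752 listed, and the level filter removed none. The lowest of them stood at 15.1 FPKM, far above the filter. Of the 40, 37 are subunits of complex I. The remaining members carry the family name only. Ndufa4 was first described in complex I and is now assigned to complex IV, Ndufa4l2 is its paralog, and Ndufb4c is annotated as a processed pseudogene, an intronless copy of Ndufb4.

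Male mice were either kept sedentary or given a running wheel from 8 weeks of age for 8 weeks. The labels call the genotypes Ctrl and Nrip1KO, which the study names WT and strNrip1-/-. According to the study's methods, both carried the floxed Nrip1 allele, and a Cre driven by the muscle creatine kinase promoter, active in heart and skeletal muscle, was present only in the knockout. The controls were littermates. Nrip1 encodes RIP140, a corepressor of nuclear receptors, and the floxed mice were C57BL/6J whereas the Cre line was C57BL/6JN. There were 4 groups of 3 libraries, 12 in all, with each labelled genotype sedentary and trained. Nothing in the labels says whether the libraries of a group came from separate mice, so the p-values measure the spread between these libraries. The study asked which genes respond to loss of RIP140 in muscle and whether training changes that response.

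The targeted gene went against its labels. In sedentary muscle Nrip1 stood at 2.55 to 3.84 FPKM in the libraries labelled WT and at 14.9 to 16.3 FPKM in those labelled strNrip1-/-, and in trained muscle at 2.53 to 4.76 and 14.9 to 20.7 FPKM. It was therefore higher, not lower, in the libraries labelled strNrip1-/-. Gene-level FPKM does not separate the deleted exon from the rest of the transcript, so this gene does not check the labels, and each genotype difference below is given by label. By the step between neighbouring low FPKM values, the scale of the libraries was 20.0 to 28.9 M fragments (M, 1e6). That scale is the depth only if values were not scaled between libraries, which the sources used here do not say. The defining fast-fibre genes were abundant, with Myh4, the 2B myosin heavy chain, at 6582 to 10780 FPKM. Genes of slow fibres differed between single libraries: Myh7, the slow myosin heavy chain, was at 24.8 and 49.99 FPKM in replicate 2 of labelled WT sedentary and trained and 19.4 FPKM in replicate 1 of labelled strNrip1-/- sedentary, against 1.07 to 5.74 FPKM in the other 9 libraries. Adipocyte markers were highest in replicate 3 of labelled strNrip1-/- sedentary, where the median of the list lay 1.51 above its mean on the log2 scale.

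Complex I oxidises NADH, passes the electrons to ubiquinone and pumps protons across the inner mitochondrial membrane. Its peripheral arm in the matrix holds the N module, which takes electrons from NADH, and the Q module, which reduces ubiquinone, and its membrane arm holds the proton pumps. The catalytic core is made partly from nuclear genes, all in the peripheral arm, and partly from the mitochondrial mt-Nd genes, all in the membrane arm. The other subunits are accessory and nuclear, and they surround and stabilise the core. In skeletal muscle the complex is more abundant in oxidative than in glycolytic fibres.

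Counting error was small for all 40 genes. The member with the fewest fragments in any library was Ndufa4l2, with 152, which gives a counting error of 8.12%, and the member with the most, Ndufb2, rested on at least 15496, an error of 0.803%. These errors cover counting only, and not the splitting of fragments between a member and a near-identical copy or an overlapping gene. The highest levels over the 12 libraries were those of Ndufa4 at 1142 FPKM, Ndufa12, an N module subunit, at 747 FPKM, and Ndufb9, a subunit of the distal membrane arm, at 738 FPKM. The lowest were Ndufa4l2 at 15.1 FPKM, Ndufs4, an N module subunit, at 105 FPKM, and Ndufb1-ps at 107 FPKM. Among the 37 subunits of one complex, the mean FPKM thus spanned from that of Ndufs4 to that of Ndufa12.

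The summed FPKM of the members was 13810 ± 1390 and 16200 ± 3440 in sedentary muscle labelled WT and strNrip1-/-, and 13230 ± 1850 and 15960 ± 480 in trained muscle (SD, n = 3). The labelled strNrip1-/- libraries had the higher mean in both training states. In the sedentary groups the libraries were 12900, 15420 and 13120 FPKM in labelled WT against 15610, 19900 and 13090 FPKM in labelled strNrip1-/-, so the ranges overlapped. In the trained groups they were 12390, 15350 and 11960 FPKM in labelled WT against 16210, 15410 and 16270 FPKM in labelled strNrip1-/-, and there the ranges did not overlap, although replicate 2 of the WT group came close. These summed levels are FPKM of bulk muscle, in which a change in the share of one fibre type and a change in RNA per fibre cannot be told apart.

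**Figure D1:**
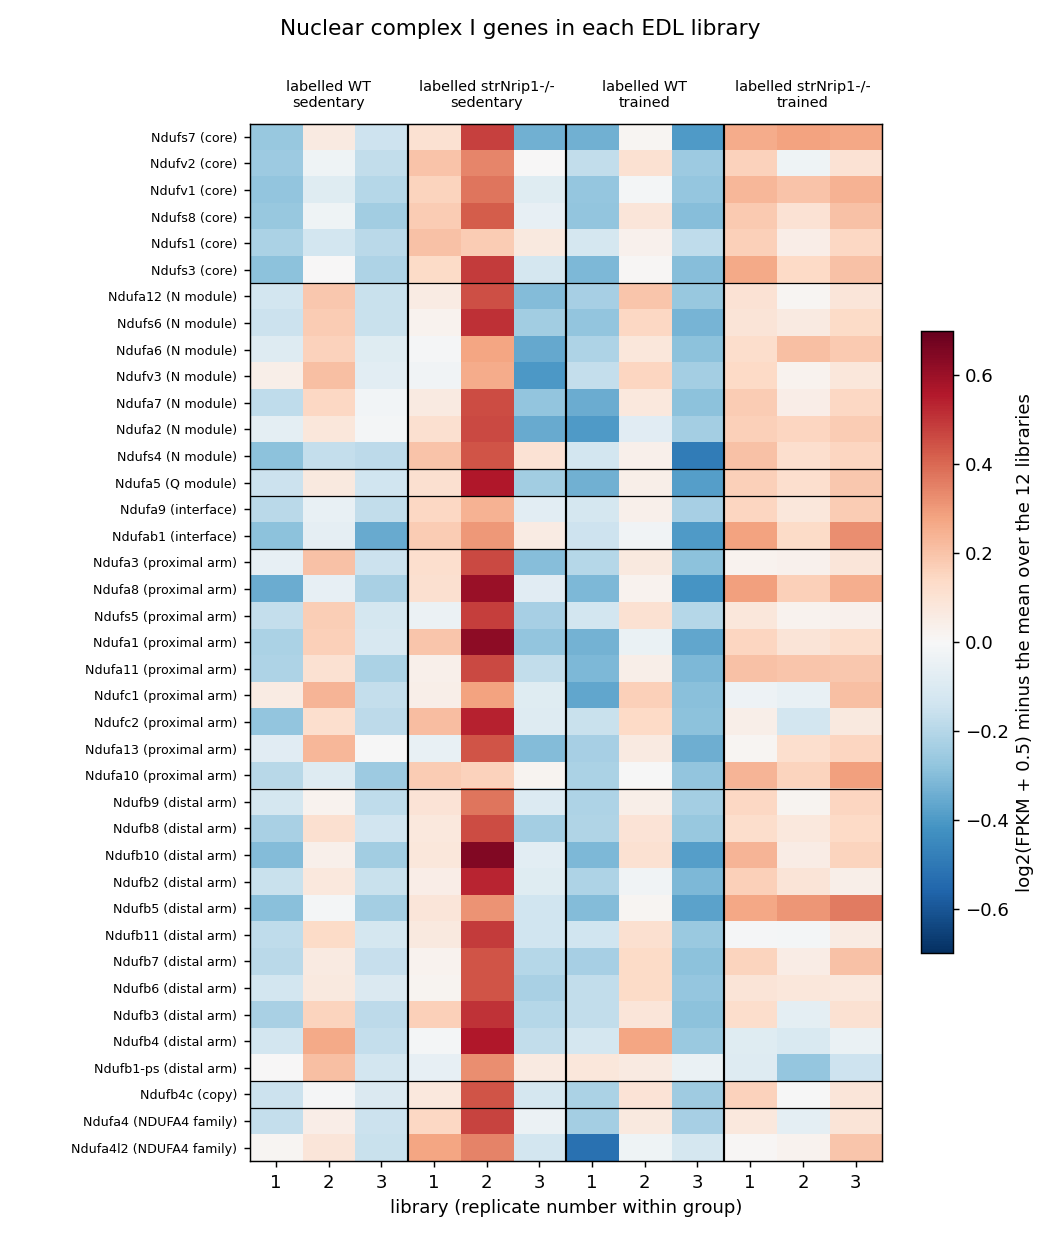
Level of 39 of the genes in each of the 12 libraries, as log2(FPKM + 0.5) minus the gene's mean over the libraries (colour), with genes grouped by their place in the complex and libraries by labelled group. Replicate 2 of labelled strNrip1-/- sedentary is the darkest red column (median 0.45), the 3 libraries of labelled strNrip1-/- trained resemble each other, and Ndufb1-ps departs from the shared pattern.

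The members moved together from library to library. The median correlation between 2 members over the 12 libraries was 0.86, and it was 0.94 for deviations from the group means, a description of genes that share libraries, depth and short transcripts. Replicate 2 held the highest value of a member for 40 of 40 genes among the sedentary libraries labelled WT and for 38 among those labelled strNrip1-/-. Among the trained libraries it did so for 39 genes under the WT label but for 2 under the strNrip1-/- label. The median coefficient of variation of the members was 10.3% and 22.8% in sedentary muscle labelled WT and strNrip1-/- and 13.9% and 3.86% in trained muscle, against 6.42%, 11.5%, 8.62% and 4.60% in the same order for all genes above 50 FPKM, a level that all members but Ndufa4l2 exceed. Members and other abundant genes alike had their replicates widest apart in the sedentary and closest in the trained strNrip1-/- group. Ndufb1-ps was the member least like the rest, with a correlation of 0.27 to the mean of the others, and Ndufs1 came next with 0.76.

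Short transcripts of other genes varied along with the members. The principal transcripts of the members have a median length of 866 nt, from 390 to 2626 nt. The 1285 tested non-members with transcripts under 1000 nt had their highest median, 0.27 above the mean on the log2 scale, in replicate 2 of labelled strNrip1-/- sedentary, where the members stood at 0.45. Their next highest medians, 0.13 and 0.06, were in replicate 2 of labelled WT sedentary and of labelled WT trained, where the members stood at 0.07 and 0.07. Over the 12 libraries the correlation of both medians was 0.82. The part of short transcripts in the genotype differences was not tested beyond the alternatives that take out length. Leaving out these 3 libraries does not test it. The members' own median was the highest of its group in each of them, and none is from labelled strNrip1-/- trained. Between genotypes, the median difference of these short non-members was 0.02 in sedentary and 0.04 in trained muscle on the log2 scale, with 681 and 705 of the 1285 above 0.

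**Figure D2:**
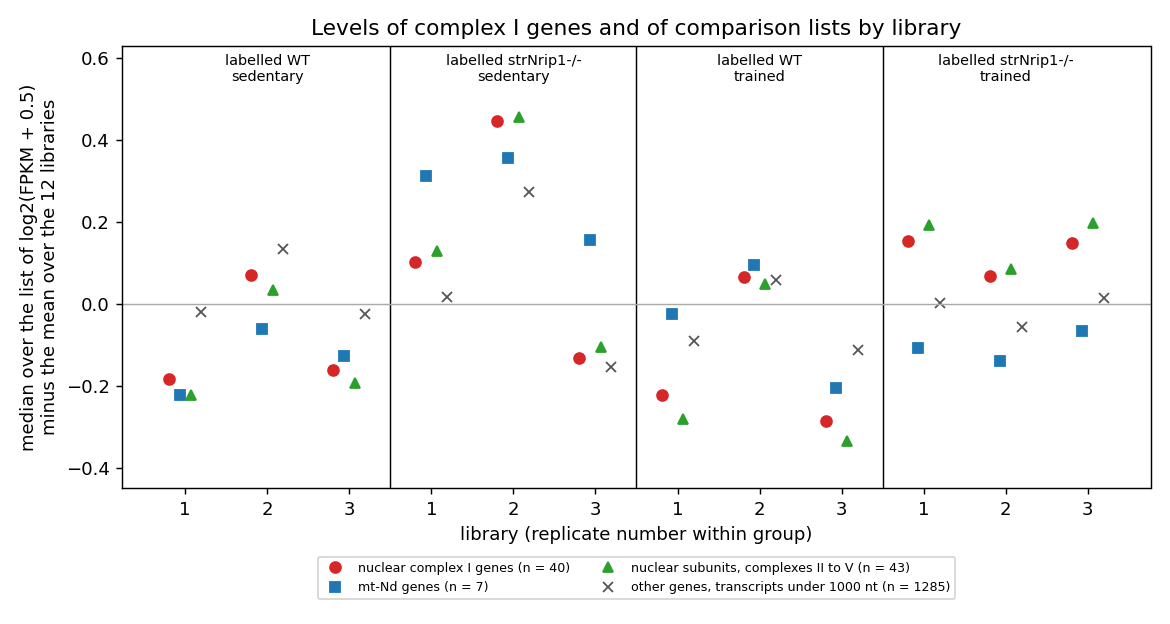
Median over each gene list of log2(FPKM + 0.5) minus the gene's mean over the 12 libraries (vertical axis), for each library (horizontal axis, replicate number within labelled group). The nuclear complex I genes (circles) track nuclear subunits of complexes II to V (triangles). The mt-Nd genes (squares) are raised in labelled strNrip1-/- sedentary and below their mean in labelled WT sedentary and labelled strNrip1-/- trained. Short transcripts of other genes (crosses) peak in replicate 2 of labelled strNrip1-/- sedentary at 0.27.

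In sedentary muscle most members were somewhat higher in the libraries labelled strNrip1-/-, and 1 passed the test. A gene was called when its limma adjusted p was under 0.05 and its fold change above 1.2. That was met by 1 of the 40 members, against 3.51% of all 12744 genes tested in either direction and 1.92% higher. Of the members, 37 were above 0 and 3 below, where 49.8% of all genes were above 0, and the median log2 difference was 0.22 against 0.00 for all genes. At an unadjusted p under 0.05 there were 11 members higher and 0 lower, against 7.86% of all genes higher. The 3 libraries of both groups did not overlap, with strNrip1-/- higher, for 6 members, against 9.79% of all genes: Ndufs1, Ndufv1, Ndufv2, Ndufs4, Ndufab1 and Ndufa10.

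The core subunits were all higher in the sedentary libraries labelled strNrip1-/-. Ndufs1, the largest core subunit, which carries iron-sulfur clusters of the N module, was the member called. It lies on the minus strand of chromosome 1 (chr1:63143596-63176833, GRCm38). Up to 320 nt of its exons overlap Ino80dos on the opposite strand, which has no listed value, and the library kit does not keep strand. Levels of Ndufs1 were 185, 197 and 189 FPKM in labelled WT sedentary and 248.9, 244.5 and 226 FPKM in labelled strNrip1-/- sedentary. All 3 libraries labelled strNrip1-/- were above all 3 labelled WT, and the coefficient of variation was the lowest of any member in both groups, at 3.20% and 5.02%. The log2 difference was 0.33 with an SE of 0.07, and the limma adjusted p was 0.0277. The call was lost on leaving out any one of 6 libraries, namely the 3 of labelled WT sedentary, replicates 1 and 2 of labelled strNrip1-/- sedentary and replicate 3 of labelled strNrip1-/- trained, with limma adjusted p-values of 0.0505 to 0.119 and log2 differences of 0.30 to 0.35. It was also lost with libraries rescaled to the same summed FPKM, where the difference was 0.17 and the median of all genes shifted by -0.14. A fit on only the 6 sedentary libraries lost it too, as did leaving out the 3 libraries with the highest short transcripts.

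Ndufv1, which binds FMN and NADH, was at 270.5, 309 and 286 FPKM in labelled WT sedentary and 365, 426 and 309.5 FPKM in labelled strNrip1-/- sedentary. The lowest library labelled strNrip1-/- exceeded the highest labelled WT by less than 1 FPKM. The log2 difference was 0.34 and the limma adjusted p 0.146. Ndufv2, the other iron-sulfur subunit of the NADH dehydrogenase unit, gave 0.33 with a limma adjusted p of 0.155. Of the core subunits around the ubiquinone site, Ndufs8 gave a log2 difference of 0.36, Ndufs3 of 0.33 and Ndufs7 of 0.20, with limma adjusted p-values of 0.183 to 0.679. Without replicate 2 of labelled strNrip1-/- sedentary the difference of Ndufs7 was 0.001 and that of Ndufs3 0.173, and without replicate 3 of that group they were 0.407 and 0.478. Ndufs3 has a pseudogene copy with 98.6% identity that was not analysed here, so its own level is less certain.

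Accessory subunits spread more widely. Ndufs4, an N module subunit whose loss in mice is a model of Leigh syndrome, had the largest difference of any member in sedentary muscle. Its levels were 84.4, 91.6 and 90.9 FPKM in labelled WT and 119, 140 and 111 FPKM in labelled strNrip1-/-, without overlap. The log2 difference was 0.46 with an SE of 0.12, and the limma adjusted p of 0.0712 missed the threshold. Ndufab1, the mitochondrial acyl carrier protein, which sits at 2 places in the complex, gave 0.41 with a limma adjusted p of 0.0743. Ndufa8, a subunit of the proximal membrane arm, gave 0.42, with libraries at 329, 402 and 357.5 FPKM in labelled WT and 452, 638 and 396 FPKM in labelled strNrip1-/-, which overlapped. The 3 members below 0 were the N module subunits Ndufv3 at -0.12 and Ndufa6 at -0.03 and the proximal arm subunit Ndufa13 at -0.02, with limma adjusted p-values of 0.803 to 0.971. None of these can be told from 0. In these 3, as in 39 of the 40 members, replicate 3 of labelled strNrip1-/- sedentary was the lowest of that group. Ndufa6 and Ndufa13 lay above 0 when libraries were rescaled by nuclear genes, but still below the median of all genes, which moved to 0.07.

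By place in the complex, the median log2 difference in sedentary muscle was 0.33 for the 7 core subunits, 0.10 for the 7 accessory subunits of the N module, 0.22 for the 9 of the proximal arm and 0.19 for the 11 of the distal arm. At an unadjusted p under 0.05, 6 of the core subunits and 0 of the distal arm subunits were higher, against 7.86% of all genes. The core subunits also have longer transcripts than the distal arm subunits, and across the members the difference rose with transcript length (Spearman's rho 0.43 across 40 genes, which are not independent). The 15 members under 700 nt had a median of 0.14 and the 25 longer ones 0.25. Whether place in the complex or length goes with the size of the difference was not tested.

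**Figure D3:**
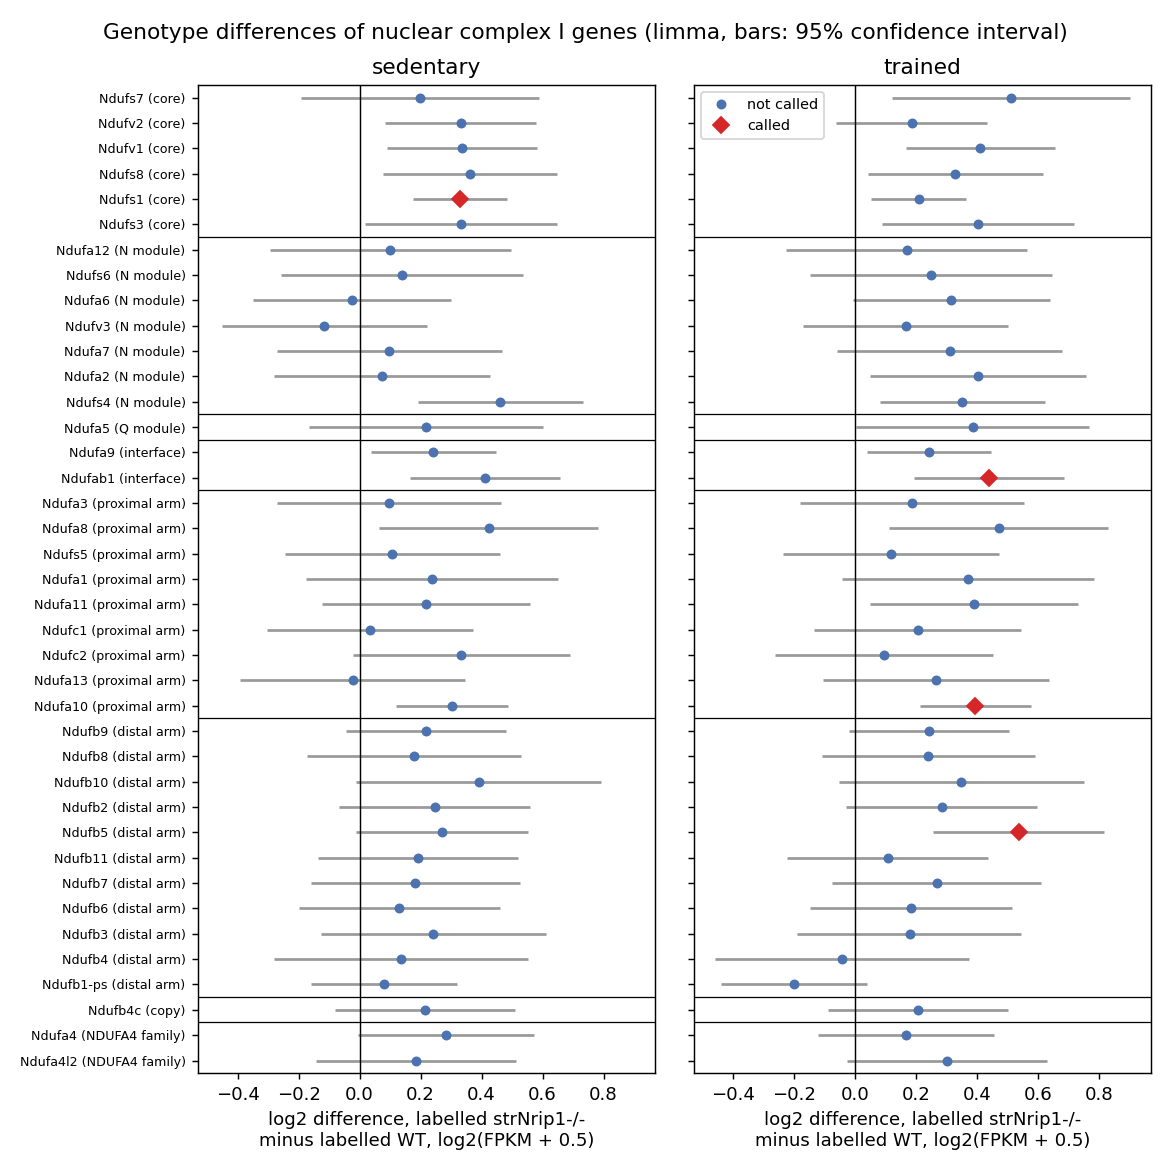
Log2 difference between the labelled genotypes for 39 of the genes on the log2(FPKM + 0.5) scale, in sedentary (left) and trained (right) muscle, with 95% confidence intervals from limma and called genes as diamonds. Ndufs1 is called in sedentary muscle and Ndufa10, Ndufb5 and Ndufab1 in trained muscle, 36 and 37 of the points lie above 0, and Ndufb1-ps lies at -0.20 in trained muscle.

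In trained muscle 3 members were called higher in the libraries labelled strNrip1-/-, against 5.98% of all genes called in either direction and 3.21% higher. They were Ndufa10, Ndufb5 and Ndufab1, and none was called lower. Of the 40 members, 38 were above 0 and 2 below, where 51.0% of all genes were above 0, and the median log2 difference was 0.27 against 0.01 for all genes. At an unadjusted p under 0.05 there were 15 members higher and 0 lower, against 11.2% of all genes higher. Groups did not overlap for 19 members that were higher, against 13.9% of all genes, and for 1 that was lower, against 13.4%. Replicate 2 of labelled strNrip1-/- sedentary, labelled WT sedentary and labelled WT trained had the highest short transcripts. Leaving these libraries out gave 23 members called in trained and 0 in sedentary muscle, against 894 and 231 of all genes. The members' own median was also the highest of its group in each of these libraries. The between-library scaling mattered as well. With libraries rescaled to the same summed FPKM 18 members were called in trained muscle and 1 in sedentary muscle, Ndufs4 in place of Ndufs1. Rescaling by nuclear genes gave 17 and 15, quantile normalization 8 and 8, and median-ratio rescaling left the counts at 3 and 1. Of all genes, 679 in trained and 652 in sedentary muscle were called after rescaling to the same sum. The counts were 614 and 480 by nuclear genes, 846 and 526 by quantiles and 765 and 449 by median ratio. Rescaling by nuclear genes moved the medians of all genes to 0.04 and 0.07, and rescaling to the same sum to 0.06 and -0.14.

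Ndufa10, a membrane arm subunit of the proximal module related to nucleoside kinases (chr1:92439010-92473860, minus strand, GRCm38), had 130, 151 and 125 FPKM in the trained libraries labelled WT and 179, 169 and 185 FPKM in those labelled strNrip1-/-. All 3 libraries labelled strNrip1-/- were higher. The log2 difference was 0.39 with an SE of 0.08 and a limma adjusted p of 0.0194. In sedentary muscle the levels were 132.5, 142 and 127 FPKM against 172, 170.0 and 154 FPKM, again without overlap, with a log2 difference of 0.30 and a limma adjusted p of 0.0781. The trained call was lost without replicate 1 or 3 of labelled WT trained or replicate 3 of labelled strNrip1-/- trained, with limma adjusted p-values of 0.074 to 0.0877. A fit on only the 6 trained libraries lost it too.

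Ndufb5, a subunit of the distal arm (chr3:32736990-32751566, plus strand, GRCm38), had the largest difference in trained muscle. Its levels were 291, 362 and 277 FPKM in the trained libraries labelled WT and 433, 444.5 and 461 FPKM in those labelled strNrip1-/-. The groups were well apart, and differed by 0.54 on the log2 scale with an SE of 0.13 and a limma adjusted p of 0.0323. In sedentary muscle the groups overlapped, with a log2 difference of 0.27 and a limma adjusted p of 0.328. Ndufb5 shares up to 530 nt of exon with Mrpl47 on the opposite strand, and the library kit does not keep strand. Mrpl47 was listed at 16.2 FPKM, and how the shared reads were split was not tested. The call was lost on leaving out replicate 1 or 3 of labelled WT trained or any one library of labelled strNrip1-/- trained, with limma adjusted p-values of 0.0632 to 0.119.

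Ndufab1 (chr7:122085403-122101886, minus strand, GRCm38) had 181, 197 and 152 FPKM in the trained libraries labelled WT and 244, 220 and 252 FPKM in those labelled strNrip1-/-, without overlap. This gave a log2 difference of 0.44 with an SE of 0.11 and a limma adjusted p of 0.0415. Of the called members it was the one whose call was lost most often, on leaving out any one of 8 libraries: replicates 1 and 3 of labelled WT sedentary, replicate 1 of labelled strNrip1-/- sedentary, replicates 1 and 3 of labelled WT trained and all 3 of labelled strNrip1-/- trained. The limma adjusted p-values were then 0.0521 to 0.148. The call was also lost with no filter on low values and in a fit on only the 6 trained libraries. A pair of processed pseudogenes, Gm4459 and Ndufab1-ps, are 99.7% identical to Ndufab1 over most of the transcript and were not analysed here, so fragments could have been split between the copies. Up to 269 nt of Ndufab1 exons also overlap Gm44986 on the opposite strand, which has no listed value.

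**Figure D4:**
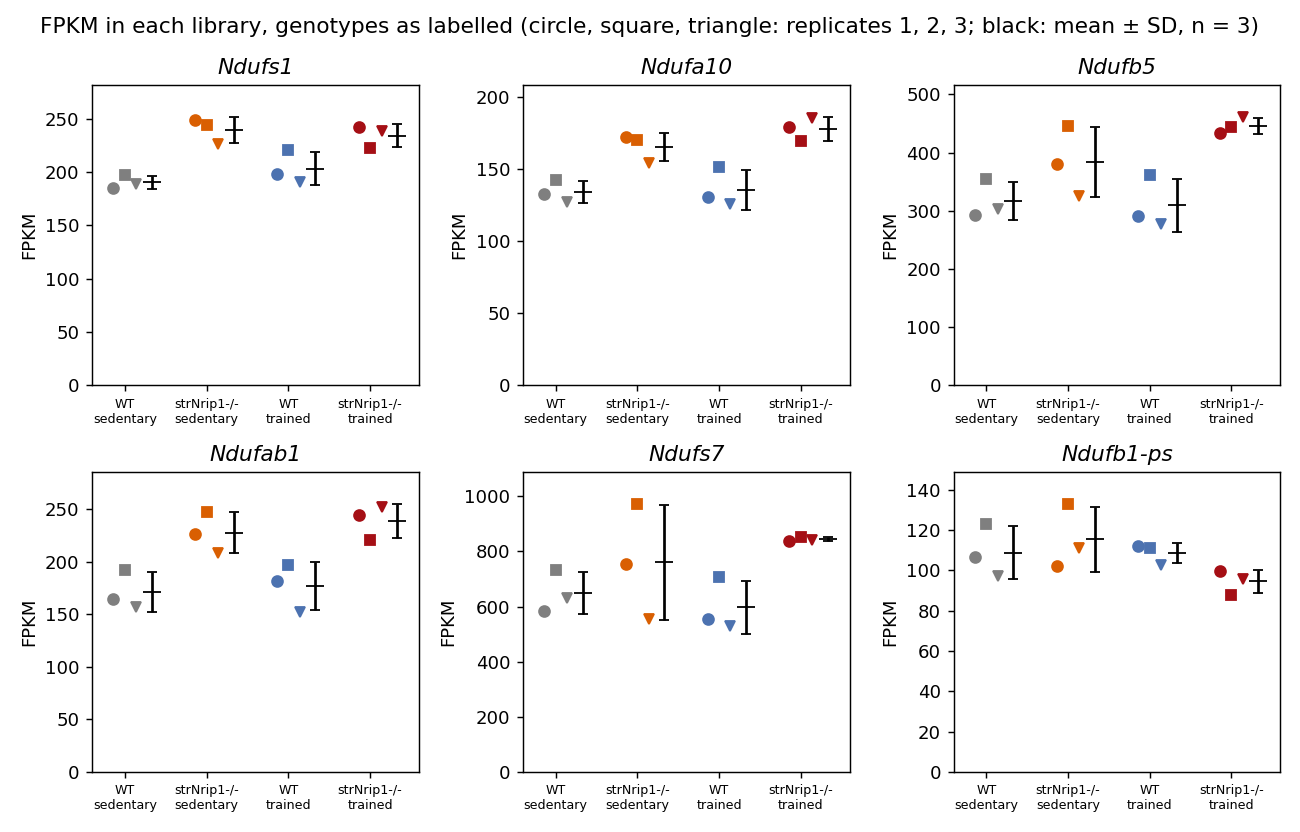
FPKM of 6 members in each library (circle, square and triangle for replicates 1, 2 and 3) with the mean and SD of each labelled group (black, n = 3), on axes from 0. Ndufs1, Ndufa10, Ndufb5 and Ndufab1 are the called members, Ndufs7 has its closest replicates in labelled strNrip1-/- trained (SD 6.90 FPKM), and Ndufb1-ps is lowest in that group.

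The core subunits were again all higher in trained muscle, with a median log2 difference of 0.38. By limma 0 were called, against 3.21% of all genes called higher. At an unadjusted p under 0.05, 6 were higher, against 11.2% of all genes. Ndufs7, the subunit that carries the last iron-sulfur cluster before ubiquinone, had 554, 707 and 531 FPKM in labelled WT trained and 837, 851 and 843 FPKM in labelled strNrip1-/- trained. The libraries labelled strNrip1-/- were far above and almost equal to each other. On the log2 scale they differed by 0.51, the second largest of the members, with a limma adjusted p of 0.121. In sedentary muscle its groups overlapped, at 582, 732 and 632 FPKM against 754, 973 and 554 FPKM. Ndufv1 gave 0.41 with a limma adjusted p of 0.055, just above the threshold. Ndufs3 gave a log2 difference of 0.40, Ndufs8 of 0.33, Ndufs1 of 0.21 and Ndufv2 of 0.19. Of these 6, all but Ndufv2 had groups that did not overlap, against 13.9% of all genes higher without overlap.

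Among accessory subunits Ndufa8 gave 0.47, Ndufs4 0.35 and Ndufb9 0.24 on the log2 scale, with limma adjusted p-values of 0.12, 0.124 and 0.278. The N module accessory subunits, at 0.10 in sedentary muscle, had a median of 0.31 in trained muscle, and all 7 were above 0. The proximal arm had a median of 0.26 and the distal arm of 0.24. Spearman's rho with transcript length across the members was 0.20.

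Ndufb1-ps and Ndufb4 were the members below 0 in trained muscle. Ndufb1-ps, the mouse gene for the small distal arm subunit NDUFB1, which the annotation lists as a long noncoding RNA from a bidirectional promoter, had 112, 111 and 103 FPKM in labelled WT trained and 99.6, 88.0 and 96.0 FPKM in labelled strNrip1-/- trained. It was the member with the strNrip1-/- libraries below all 3 of WT. Its log2 difference was -0.20 with a limma adjusted p of 0.329, and in sedentary muscle it was 0.08. Up to 147 nt of its exons overlap Cpsf2 on the opposite strand, whose reads could not be separated. Ndufb4 gave -0.04, but its copy Ndufb4c, 100% identical over its whole length of 390 nt, gave 0.21. Their summed FPKM in trained muscle was 504 ± 78.0 for the WT label and 554 ± 25.5 for the strNrip1-/- label (SD, n = 3), ranges that overlapped.

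Ndufa4 and Ndufa4l2, the relatives outside the complex, were also above 0 in both training states. Ndufa4 was at 1010, 1168 and 1018 FPKM in labelled WT sedentary and 1251, 1573 and 1101 FPKM in labelled strNrip1-/- sedentary, which overlapped, with a log2 difference of 0.28 and a limma adjusted p of 0.316. In trained muscle the difference was 0.17. Ndufa4l2, a hypoxia-induced gene, gave 0.18 and 0.30, with limma adjusted p-values of 0.634 and 0.28.

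No member passed the test for training within either labelled genotype. Among WT libraries 0 members were called by limma, as were 0% of all genes, while 8.33% of all genes, but 0 members, had an unadjusted p under 0.05. The median log2 difference of the members was -0.04, with 11 above and 29 below 0, where 50.4% of all genes were above 0. The lowest values were -0.24 for Ndufa2, an N module subunit whose groups did not overlap, against 6.50% of all genes lower without overlap, -0.22 for Ndufa13 and -0.21 for Ndufa4l2, and the largest positive values were 0.09 for Ndufs1, 0.05 for Ndufv2 and 0.04 for Ndufab1. The limma adjusted p was at least 0.756 for each member. Among strNrip1-/- libraries 0 members and 0% of all genes were called by limma, and 12.1% of all genes and 1 member had an unadjusted p under 0.05. That member was Ndufb1-ps, at 102, 133 and 111 FPKM in sedentary and 99.6, 88.0 and 96.0 FPKM in trained muscle, without overlap, against 7.50% of all genes lower without overlap. Its log2 difference was -0.28 with an SE of 0.11 and a limma adjusted p of 0.346. The next lowest values were -0.23 for Ndufc2 and -0.21 for Ndufb4, both of the membrane arm, and the highest were 0.23 for Ndufb5, 0.20 for Ndufa6 and 0.19 for Ndufs7. Ndufb4 turned to 0.013 without replicate 2 of labelled strNrip1-/- sedentary, and Ndufs7 to -0.021 without replicate 3 of that group. The median over the members was 0.00, and 19 were above 0, against 51.9% of all genes. Intervals were wide: for Ndufs7 the 95% confidence interval of the training difference in strNrip1-/- ran from -0.20 to 0.58.

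The genotype difference was not shown to depend on training for any member. By limma 0 members and 0% of all genes were called in the interaction, and 7.76% of all genes, but 0 members, had an unadjusted p under 0.05. The median over the members was 0.06, with 28 above 0, against 51.3% of all genes. The most positive values, a larger strNrip1-/- minus WT difference in trained muscle, were 0.34 for Ndufa6, 0.33 for Ndufa2 and 0.31 for Ndufs7, and the most negative were -0.28 for Ndufb1-ps, -0.24 for Ndufc2 and -0.18 for Ndufb4, which turned to 0.039 without replicate 2 of labelled strNrip1-/- sedentary. The lowest limma adjusted p of a member was 0.684, for Ndufb1-ps.

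The subunits of the same complex that the mitochondrial genome encodes were not compared with the nuclear members by a test, and their values are given side by side. In sedentary muscle all 7 mt-Nd genes were higher in libraries labelled strNrip1-/-. Their median log2 difference was 0.40, beside 0.33 for the nuclear core and 0.22 for the 40 members. Groups did not overlap for 6, against 9.79% of all genes higher without overlap. The values ran from 0.33 for mt-Nd5 to 0.68 for mt-Nd3. By limma 0 were called, with the lowest adjusted p, 0.0505, for mt-Nd6. All 7 had an unadjusted p under 0.05, against 7.86% of all genes higher at that threshold. In trained muscle the median of the mt-Nd genes was -0.03 and 2 of 7 were above 0, while the nuclear core stood at 0.38 and the 40 members at 0.27. Trained minus sedentary within strNrip1-/-, all 7 were lower, with a median of -0.33, where the nuclear members had a median of 0.00. The groups did not overlap for any of the 7, against 7.50% of all genes lower without overlap, and 0 were called by limma. At an unadjusted p under 0.05 there were 6, against 12.1% of all genes in either direction. The interaction of the mt-Nd genes had a median of -0.43, and 6 had an unadjusted p under 0.05, against 7.76% of all genes. Their lowest limma adjusted p was 0.579, so the difference between training states did not pass the test. Mitochondrial genes took 51.2% to 52.8% of all FPKM in labelled strNrip1-/- sedentary and 42.2% to 47.3% in the other 9 libraries. As deposited, the median over all genes of the log2 level minus the gene's mean was -0.011 to 0.006 across the 12 libraries. Whether the mitochondrial share sets the nuclear values was not tested beyond the rescalings. By nuclear genes the members' median genotype differences were 0.30 in sedentary and 0.30 in trained muscle, while the medians of all genes moved to 0.07 and 0.04. By median ratio the members' medians were 0.223 and 0.265, with all genes at 0.004 and 0.006. By the same sum the members' medians were 0.061 and 0.33, with all genes at -0.138 and 0.061.

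The 20 assembly factors tested, which build the complex without remaining in it, had medians of 0.16 and 0.16 in sedentary and trained muscle. Of these 0 were called by limma. At an unadjusted p under 0.05, 6 were higher in each state, against 7.86% and 11.2% of all genes. The 43 nuclear subunits of complexes II to V had medians of 0.28 and 0.36, with 6 and 11 called higher, against 1.92% and 3.21% of all genes. Markers of the fast 2B fibre went the other way. All 6 were below 0 in both states, with medians of -0.33 and -0.42, and Actn3, the fast-fibre actinin, was called lower in both, by 0.91 and 0.75 on the log2 scale, as was Mylk2, the skeletal muscle myosin light chain kinase. Their summed FPKM was 69100 to 76580 and 54110 to 71620 in sedentary muscle labelled WT and strNrip1-/-, and 68850 to 81190 and 58480 to 62830 in trained muscle. The 9 markers of oxidative fibres had medians of -0.19 and -0.28, and among them Myh2, the 2A myosin heavy chain, was called higher in trained muscle, at 330, 393 and 332 FPKM against 217, 209 and 217 FPKM. The 7 endothelial markers had medians of 0.23 and 0.25, beside 0.22 and 0.27 for the members, and summed to 77.7 to 84.7, 92.4 to 103, 79.5 to 86.8 and 97.3 to 103 FPKM in the same order of groups. The 7 adipocyte markers were all above 0 in sedentary muscle, by 0.32 to 1.70 on the log2 scale, had a median of 0.15 in trained muscle and summed to 171 to 214, 231 to 354.5, 207 to 248 and 220 to 335 FPKM. Blood markers were above 0 in 5 of 5 in both states, with medians of 0.10 and 0.43, and summed to 753 to 1811, 850 to 1834, 723 to 863 and 808 to 1444 FPKM, ranges that overlapped between genotypes. The 6 Schwann cell markers had medians of -0.30 and 0.32, and the 7 fibroblast and tendon markers of 0.17 and -0.28, with all 7 below 0 in trained muscle. The 6 macrophage markers had medians of 0.04 and -0.07. Of the blood, Schwann cell, fibroblast and macrophage markers 0 were called by limma. At an unadjusted p under 0.05 there were 2 in sedentary and 4 in trained muscle, in either direction. Of all 12744 genes, 1002 were higher and 1078 lower at that threshold in sedentary muscle, and 1426 and 1257 in trained muscle. At that threshold 4 and 3 of the endothelial markers were higher in sedentary and trained muscle. Limma called 0 and 1 of them higher, against 1.92% and 3.21% of all genes. Of the adipocyte markers 4 and 0 were higher at that threshold, and 0 were called. The part of any of these cell types in the complex I values was not tested.

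Promoter sequences of the members were searched for motifs of factors known to act on mitochondrial genes. RefSeq promoters of GRCm38.p6, from 250 bases before to 50 bases after the start site, were found for 34 members, and 5 motifs were searched on both strands. The ERR element TCAAGGTCA was in 0 of them and in 0.407% of all 27025 promoters, the shorter half-site AAGGTCA, which is contained in it, in 3 (8.82%, against 4.66%), the palindromic NRF1 element in 1 (2.94%, against 0.977%), and the GABPA element CCGGAAG in 4 (11.8%, against 9.12%). The YY1 element AAGATGGCG was in 5 (14.7%, against 1.49%). In all 5 it lay on the strand of the gene, 23 to 36 bases after the start site, and its ATG was the annotated start codon, so it also encodes the first residues. The 30 bases around it are shown for these genes, with the element in capitals, because it was the searched element with the highest share among the members:
Ndufa9 (chr6:126849096-126849125, minus strand, GRCm38.p6): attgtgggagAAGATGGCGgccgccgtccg
Ndufc1 (chr3:51408914-51408943, minus strand, GRCm38.p6): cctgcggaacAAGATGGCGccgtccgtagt
Ndufs4 (chr13:114388045-114388074, minus strand, GRCm38.p6): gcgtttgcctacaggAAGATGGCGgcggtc
Ndufs6 (chr13:73328433-73328462, minus strand, GRCm38.p6): aagggtcaccggcAAGATGGCGgcggtgct
Ndufs7 (chr10:80249463-80249492, plus strand, GRCm38.p6): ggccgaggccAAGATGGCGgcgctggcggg

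The values of these 5 genes differed among themselves. Their log2 differences between labelled genotypes in sedentary and trained muscle were 0.46 and 0.35 for Ndufs4, 0.20 and 0.51 for Ndufs7, 0.24 and 0.24 for Ndufa9, the subunit near the junction of the arms, 0.14 and 0.25 for Ndufs6, and 0.04 and 0.20 for Ndufc1. The windows of the called members Ndufa10, Ndufb5 and Ndufab1 held none of the 5 motifs, and no window was matched for Ndufs1. A match is a run of letters and was not tested for binding.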

How the data were processed

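RNA-seq libraries of EDL muscle were prepared with an unstranded kit. The authors quantified reads with Salmon 1.10.2 against mm10 and tested genes with DESeq2 1.44.0, per the study's methods and the submitters' processing notes. FPKM per gene and library were deposited by the authors in 1 table. It also holds the authors' own log2 fold changes and adjusted p-values for 4 comparisons, which were deposited beside the FPKM and were not used here. The annotation release and the function that gave the FPKM are not given in the sources used here, and neither is whether values were scaled between libraries. Columns summed to 1.03 to 1.32 M FPKM (M, 1e6).

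Because FPKM are not counts, limma 3.58.1 (R 4.3.3; trended eBayes, two-sided) was fitted to log2(FPKM + 0.5) of the 12744 genes averaging 0.5 FPKM or more, with 4 group means over 12 libraries and Benjamini-Hochberg adjustment over all genes, a scale that understates changes of low genes. The thresholds were those of the study, and the interaction used the adjusted p alone. The model was checked on simulated data in which genes varied independently and the planted changes were larger than those of the members. That check does not cover differences as small as the members' or genes that move together. Values of 1 member are not reported here singly, though it enters every count and median. Groups and replicate numbers came from the labels. The members and gene lists were chosen with earlier results of these data known. Named were the core subunits, called members, the 3 largest rises and falls per contrast, the 3 highest and lowest by level, Nrip1, the mt-Nd genes, up to 3 called assembly factors, of which there were 0, and marker genes beside a result; the genes printed for a motif or a copy were chosen after their values were seen.

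The fragment scale of each library was estimated from the whole-fragment spacing of low FPKM (99.0% to 99.7% of values within 0.15 of a whole number). It is the depth only if FPKM were not scaled between libraries. Coordinates are from GENCODE M21 (GRCm38, the build mm10 names). Transcript lengths are medians over principal transcripts. Copies were sought with BLAST 2.17.0 (at least 95% identity over 50% of the transcript). Alternatives covered the pseudocount, the filter, 4 scalings, a replicate block, GC content and length, library weights, each library left out, and a fit on the 6 libraries compared.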

Additional observations from a re-analysis of the deposited data

How the results depend on the processing

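Each result was recomputed under up to 26 alternatives, of which leaving out the 3 libraries with the highest short transcripts (replicate 2 of labelled strNrip1-/- sedentary, of labelled WT sedentary and of labelled WT trained) was chosen after seeing the data. The members' median log2 difference between genotypes stayed above 0 under all of them, from 0.05 to 0.35 in sedentary and from 0.16 to 0.39 in trained muscle. In sedentary muscle the members called, 1 as reported, were 3 with a mean of at least 5 FPKM, 15 rescaled by nuclear genes, 8 after quantile normalization, 6 with GC and length trends removed, 6 with the replicate block and those trends removed, 5 with library weights, 0 without the 3 libraries, 0 in the fit on the 6 libraries compared, and 0 to 3 leaving out 1 library (all medians then 0.05 to 0.35). In trained muscle, 3 as reported, they were 5, 17, 8, 6, 11, 14, 23 and 2 in that order, 18 rescaled to the same sum, and 0 to 7 leaving out 1 library (median 0.19 to 0.39). They were 0 without replicate 1 or 3 of labelled WT trained or replicate 3 of labelled strNrip1-/- trained, and 7 without replicate 3 and 6 without replicate 2 of labelled strNrip1-/- sedentary. The 2 called in the fit on the 6 libraries compared were Ndufb5 and Ndufv1. Rescaling to the same sum called 2 members for training in strNrip1-/- and moved the members' median interaction from 0.06 to 0.29, while the medians of all genes moved to 0.17 and 0.21. Leaving out 1 library, the median was -0.16 to 0.04 and -0.14 to 0.15 for training in WT and strNrip1-/- and -0.09 to 0.22 for the interaction, with 0 members called.

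The labels do not say that replicate numbers pair the libraries, and 5 of 18 same-numbered pairs correlated above 0.1 (-0.11 to 0.24), among them the 3 pairs of replicate 2 of labelled WT sedentary, strNrip1-/- sedentary and WT trained (0.162 to 0.241), and 4 of 12 libraries correlated best with their own number. The replicate block left 1 member called in sedentary and gave 5 in trained muscle, and 441 and 756 of all genes. All genes called, 447 in sedentary and 762 in trained muscle as reported, were 690 and 1366 with library weights, 166 and 445 on the 6 libraries, 231 and 894 without the 3 libraries, and 163 to 478 and 315 to 874 leaving out 1 library. For training they were 0 to 30 in WT and 0 to 150 in strNrip1-/- over all alternatives.

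Signs of single genes changed as follows, most of them in values near 0 but also in Ndufs7 and Ndufb4 (0.19 and -0.21 for training in strNrip1-/- as reported). In sedentary muscle rescaling by nuclear genes gave Ndufa6 0.055 and Ndufa13 0.058, rescaling to the same sum gave Ndufa12 -0.055 and Ndufb1-ps -0.075, and quantile normalization gave Ndufa12 -0.017. The rescalings moved all genes as well. The median of all genes was 0.071 by nuclear genes, above Ndufa6 and Ndufa13, and -0.138 by the same sum, below Ndufa12 and Ndufb1-ps. By the same sum it was 0.061 in trained muscle, -0.037 for training in WT and 0.205 in the interaction. In trained muscle quantile normalization gave Ndufa4 -0.003 and Ndufa12 -0.017, and Ndufb4 was 0.021 rescaled to the same sum, 0.051 with library weights and 0.114 without the 3 libraries. For training in WT, Ndufv2 was -0.001 both with library weights and without the 3 libraries, and Ndufab1 was -0.001 rescaled to the same sum and -0.011 with library weights. For training in strNrip1-/-, Ndufb4 was 0.013 without the 3 libraries. Its interaction was 0.042 rescaled to the same sum and 0.06 without the 3 libraries. Leaving out 1 library gave Ndufv3 -0.274 to 0.058, Ndufa6 -0.179 to 0.14, Ndufa13 -0.228 to 0.144, Ndufa12 -0.09 to 0.288 and Ndufb1-ps -0.026 to 0.173 in sedentary muscle, Ndufb4 -0.156 to 0.114 in trained muscle and -0.327 to 0.039 in the interaction, and for training Ndufv2 -0.061 to 0.117, Ndufab1 -0.039 to 0.148, Ndufb4 -0.353 to 0.013 and Ndufs7 -0.021 to 0.385. The causes were not tested. With 3 libraries a group, the 95% confidence interval of Ndufs1, the narrowest of the members, ran from 0.17 to 0.49 in sedentary muscle.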
